A study of Mus musculus with 9 samples.

Results

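MHC class II presentation genes were examined in LSKs, the Lin-lo Sca1+ Kit+ fraction of bone marrow that holds haematopoietic stem and progenitor cells (HSPCs). The 7 genes were H2-Aa, H2-Ab1, H2-Eb1, H2-DMa, H2-DMb1, Cd74 and Ciita. They were chosen by name for their role, with earlier results of these data known. Each of the 7 was found among the 24060 named genes of the count table and passed the filter on low counts. RNA-seq counts were deposited for 9 libraries. The control group (3 libraries) was C57BL/6. The NHD13 group (2 libraries) carried the NUP98-HOXD13 fusion, a transgene driven by the Vav promoter and so active across blood cells. The NHD13/MSI2 group (4 libraries) carried this fusion with a tet-on MSI2 transgene at the Col1A1 locus and the ROSA26 transactivator that switches it on under doxycycline. All libraries were labelled C57BL/6, LSK and 4 months of age. Donor marrow, from mice of either sex, had been mixed with CD45.1+ helper cells and given to lethally irradiated congenic recipients. By the paper, donors were 3 to 4 months old, and the LSKs were taken 4 months after transplantation, with 3 months on doxycycline. The labels do not say from what point the 4 months of age are counted.

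MHC class II molecules present peptides from the endosomal pathway to CD4+ T cells. An alpha and a beta chain are assembled in the endoplasmic reticulum on the invariant chain, and cathepsins then trim the invariant chain to a fragment that the DM dimer removes so that a peptide can bind. CIITA is the co-activator that sets the level of these genes, acting with RFX, CREB and NF-Y proteins on a shared promoter module. Dendritic cells, macrophages and B cells are the usual presenting cells, and class II is also found on some haematopoietic progenitors. H2-Aa and H2-Ab1 encode the 2 chains of I-A. H2-Eb1 encodes the beta chain of I-E, whose alpha chain is not made in the C57BL/6 strain. H2-Ea-ps, the row for this alpha chain gene, had a count of 0 in each of the 9 libraries.

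The library totals ran from 19242153 to 23013493 counts, so that 3 counts, the limit that a count of 0 allows, stand for 0.130 to 0.156 CPM. Levels are in CPM, counts scaled by the library total, here after TMM scaling, which sets the libraries on 1 scale. The TMM factor was 0.785 in NHD13/MSI2 replicate 4 and 0.969 to 1.087 in the other 8 libraries. Replicate 4 also stood apart from the other NHD13/MSI2 libraries, with a mean chi-square per gene of 397 to 426 against 18.7 to 32.3 among the other three. The counts of Msi2 did not follow the label of the double transgenic group. They were 223, 316 and 266 CPM in controls, 139 and 111 CPM in NHD13, and 88.0, 77.1, 82.8 and 241 CPM in libraries labelled NHD13/MSI2. Whether reads of the MSI2 transgene are counted under Msi2 is not given in the sources used here, so the group is named by its label. Hoxd13, part of the fusion, was at 0 in the 3 controls and at 0.648 to 1.13 CPM in the other 6 libraries. Xist reached 888 CPM in control replicate 1 and 866 CPM in control replicate 3 and did not exceed 2.33 CPM in the other 7 libraries, so that 2 of the 3 controls differ from all other libraries in sex. The submitters' library names carry the word bulk for control replicate 1 and MPP HSC for replicates 2 and 3, and the labels do not say what the names mean. Of the genes of the gate, Kit was at 908 to 2254 CPM in the 9 libraries and Ly6a, which encodes Sca1, at 48.3 to 375 CPM. The fitted Ly6a level in NHD13/MSI2 was 4.43 times that in NHD13 and 3.03 times that in controls. The adjusted p was 0.0221 and 0.0167 in edgeR, and 1.88e-05 and 0.000264 in DESeq2. These levels do not show whether the gate was alike in the 3 groups.

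The genes of the DM dimer, of I-A and of the I-E beta chain lie close together on mouse chromosome 17. On GRCm38 (GENCODE M21), H2-DMa spans 34119541 to 34139101 and H2-DMb1 spans 34153072 to 34160230, both on the plus strand. H2-Ab1 lies on the plus strand at 34257689 to 34269419, H2-Aa on the minus strand at 34282744 to 34287823 and H2-Eb1 on the plus strand at 34305867 to 34316674. Ciita lies on chromosome 16 at 10480059 to 10528418, on the plus strand. The submitters' notes name mm9 as the build, so these positions describe the genes. Of this annotation only the exon lengths were used with the counts, for the levels per kilobase below. H2-DMa shares 360 exon bases with Brd2 and Ciita shares 329 exon bases with Dexi, both on the opposite strand. Whether the counting used strand is not given, so reads from these shared bases cannot be told apart. Brd2 was at 150 to 163 CPM in controls, 146 and 183 CPM in NHD13 and 161, 185, 170 and 374 CPM in NHD13/MSI2, and Dexi did not exceed 1.71 CPM in any library.

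The promoter module of class II genes is shown for H2-Aa, H2-Eb1 and H2-DMb1, since their counts are compared below and since CIITA acts through it. RefSeq windows on GRCm38.p6 were given for 4 of the 7 genes, these 3 and H2-DMa. Each sequence is the 110 bases that end at the last base before the RefSeq start, read 5′ to 3′ on the gene's strand. The capitals mark an X box (the AG and GATG ends with an AC between them), a Y box (ATTGG, or CCAAT where it lies on the other strand) or an X2 box (TGACGTCA). H2-Eb1 is at chr17:34305757-34305866 (+), H2-DMb1 at chr17:34153081-34153190 (+) and H2-Aa at chr17:34287824-34287933 (-). The GENCODE span of H2-DMb1 given above begins upstream of its RefSeq start, so that its stretch lies within that span.
H2-Eb1: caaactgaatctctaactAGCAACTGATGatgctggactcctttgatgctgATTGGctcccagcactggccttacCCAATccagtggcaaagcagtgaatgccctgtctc
H2-DMb1: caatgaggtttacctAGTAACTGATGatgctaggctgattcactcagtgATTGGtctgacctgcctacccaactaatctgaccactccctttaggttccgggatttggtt
H2-Aa: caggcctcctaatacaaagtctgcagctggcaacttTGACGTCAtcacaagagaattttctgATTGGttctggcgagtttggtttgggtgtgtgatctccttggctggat
In H2-Eb1 the Y box began 33 bases after the X box, and in H2-DMb1 it began 34 bases after it. H2-Aa held no match to these X box letters and had the X2 box 26 bases before its Y box. Neither of the 2 windows of H2-DMa held an X box, and only the second held a Y box. These windows, at 34122582 to 34122881 and 34125268 to 34125567, lie within its GENCODE span. Other stretches of H2-DMa were not searched, so a module elsewhere in that span would have been missed. Searched on both strands of all 32851 windows of 300 bases, X box letters were found in 0.968%, Y box letters in 37.4% and X2 box letters in 1.79%. An X box followed by a Y box at 20 to 50 bases was found in 0.0335% of windows, or 11 windows. The X2 letters were chosen after the sequences had been seen. The X2 letters read the same on both strands, and a match in this window is not evidence of binding.

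Transcripts of the class II genes were counted in the control LSK samples, at levels that differed strongly between the 3 libraries. To compare genes, levels were divided by the length of all annotated exons of a gene, merged. This length is not that of the transcripts present, and any order between genes depends on it. On the scale of CPM per kilobase of exon, Cd74, the invariant chain, had the highest mean level in controls at 194 ± 153 (SD, n = 3), followed by H2-DMa at 66.8 ± 7.02, and the ranges of both overlapped. H2-Ab1 (39.5 ± 19.4), H2-Aa (32.3 ± 23.2), H2-Eb1 (30.8 ± 21.6) and H2-DMb1 (28.6 ± 5.29) came next, each below every H2-DMa value. The ranges of these 4 genes overlapped, so no order among them exceeds the spread. Ciita was lowest at 1.01 ± 0.783. In NHD13 (n = 2) the means were 45.2 for Cd74, 42.1 for H2-DMa, 17.4 for H2-DMb1, 5.67 for H2-Ab1, 4.20 for H2-Aa, 3.41 for H2-Eb1 and 0.254 for Ciita. There the ranges of Cd74 and H2-DMa overlapped, as did those of H2-Ab1, H2-Aa and H2-Eb1, and other neighbours did not. In NHD13/MSI2 (n = 4) Cd74 at 179 ± 66.8 stood above H2-DMa at 35.0 ± 1.28 and H2-DMb1 at 26.7 ± 2.29, with no overlap between neighbours. The I-A chains and H2-Eb1 followed with means of 12.3 to 15.5 and overlapping ranges, that of H2-Ab1 reaching into the range of H2-DMb1, and Ciita was again lowest at 0.594 ± 0.391.

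The surface chains gave the widest spread. The I-A alpha chain gene H2-Aa was at 208, 127 and 32.5 CPM in controls, 26.3 and 5.58 CPM in NHD13, and 37.5, 57.3, 76.96 and 14.4 CPM in NHD13/MSI2. Its partner H2-Ab1 was at 148, 107 and 49.3 CPM in controls, 23.8 and 5.29 CPM in NHD13, and 31.3, 54.1, 64.9 and 8.83 CPM in NHD13/MSI2. H2-Eb1 was at 95.4, 70.7 and 13.5 CPM in controls, 11.1 and 2.12 CPM in NHD13, and 23.4, 32.5, 42.7 and 2.79 CPM in NHD13/MSI2. For each of these 3 genes both NHD13 libraries lay below the 3 controls, while the NHD13/MSI2 libraries overlapped both other groups. Over the 9 libraries the highest level was 37.3 times the lowest for H2-Aa, 28.1 times for H2-Ab1 and 44.9 times for H2-Eb1.

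Cd74, which chaperones the newly made chains, was at 607, 266 and 103 CPM in controls, 121 and 30.6 CPM in NHD13, and 230, 321, 450 and 201 CPM in NHD13/MSI2. All NHD13/MSI2 libraries lay above both NHD13 libraries and within the range of the controls. The level of Ciita was 17.8, 7.78 and 3.24 CPM in controls, 2.67 and 2.17 CPM in NHD13, and 2.17, 7.13, 10.2 and 3.12 CPM in NHD13/MSI2, from 42 to 436 counts. Both NHD13 libraries were below the 3 controls, and the NHD13/MSI2 libraries spread over much of the range.

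The DM dimer genes varied far less. H2-DMa, the DM alpha chain, was at 238, 250 and 203 CPM in controls, 126 and 164 CPM in NHD13, and 117, 118, 126 and 122 CPM in NHD13/MSI2. H2-DMb1, a DM beta chain, was at 55.5, 50.3 and 38.2 CPM in controls, 30.7 and 27.8 CPM in NHD13, and 41.2, 47.6, 48.8 and 42.0 CPM in NHD13/MSI2. The H2-DMa level was highest in controls with no overlap with either other group, and H2-DMb1 was lowest in NHD13 with no overlap. The highest library was 2.14 times the lowest for H2-DMa and 2.00 times for H2-DMb1. H2-DMb2, a near-identical copy of H2-DMb1, had 42 to 163 counts in a library, and reads of the 2 copies may have been split between them.

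**Figure D1:**
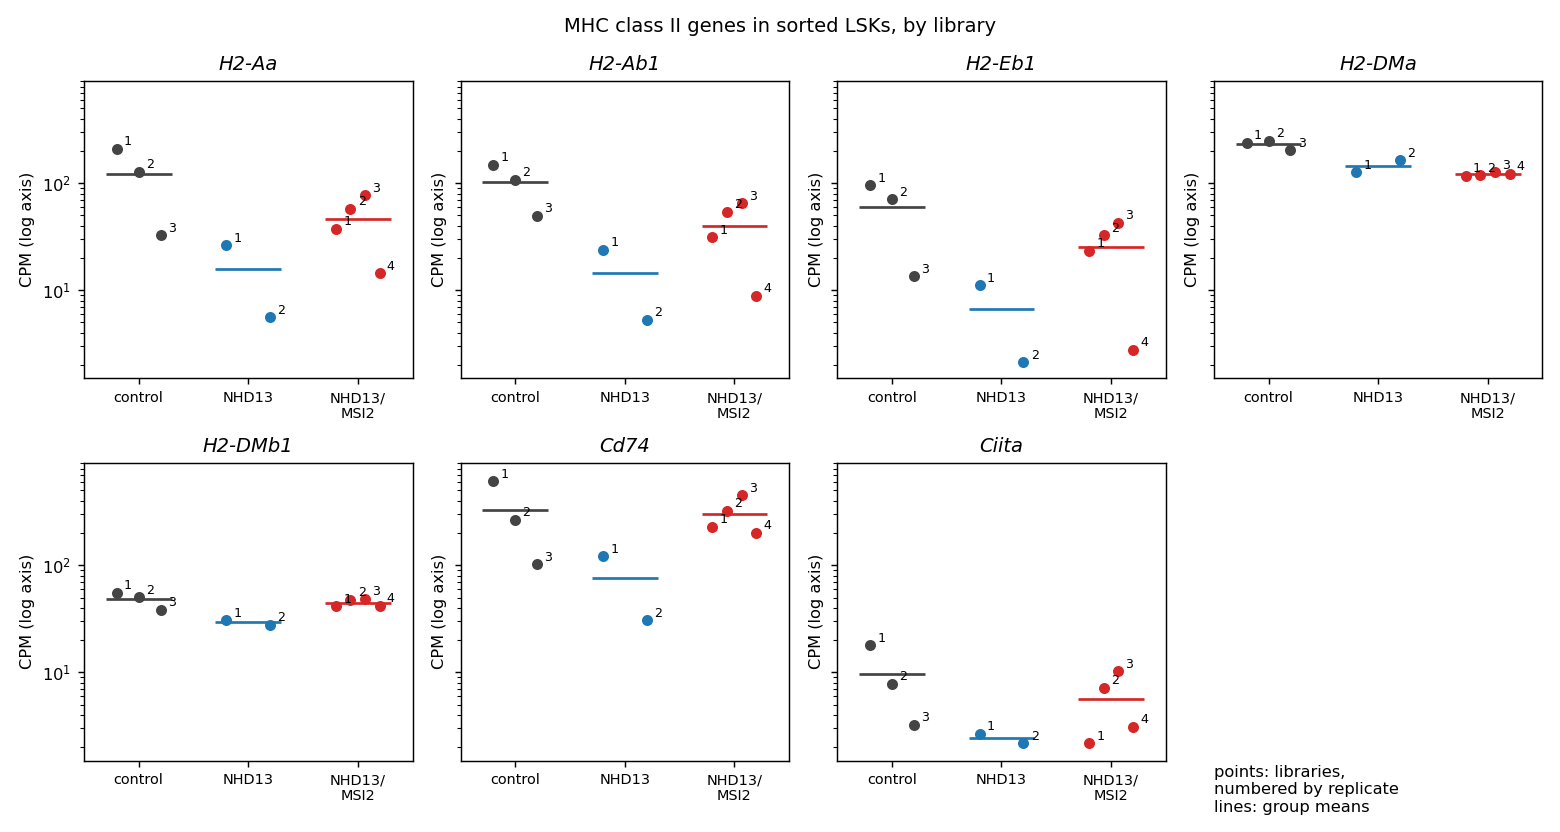
Level of each of the 7 class II genes in each library, in TMM-scaled CPM on a shared log axis, by group (3 control, 2 NHD13 and 4 NHD13/MSI2 libraries). Points are libraries with their replicate number and lines are group means. H2-Aa runs from 208 CPM in control replicate 1 to 5.58 CPM in NHD13 replicate 2, while H2-DMa stays between 117 and 250 CPM.

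The genes moved together from library to library within a group. In controls, 6 of the 7 genes had the order replicate 1, 2, 3 from high to low, and in NHD13 the same 6 genes were higher in replicate 1. The exception in both groups was H2-DMa. In NHD13/MSI2, H2-Aa, H2-Ab1, H2-Eb1 and Cd74 had the order 3, 2, 1, 4, and replicate 3 was highest for each of the 7 genes. The correlation with the mean profile of the 7 genes over the 9 libraries (Pearson's r on Z-scores of log2 CPM, a description) was 0.986 for H2-Aa, 0.957 for H2-Ab1, 0.946 for H2-Eb1, 0.910 for H2-DMb1, 0.909 for Ciita, 0.859 for Cd74 and 0.506 for H2-DMa. Each gene is part of that mean. Among 10965 other genes, 4 reached 0.9. The 5 genes most alike were Iigp1 (0.976), Sec24d (0.955), Nek8 (0.930), Rdh11 (0.909) and Hk1 (0.8998). Iigp1, an interferon-inducible GTPase gene, was at 266, 147 and 115 CPM in controls, 76.1 and 53.2 CPM in NHD13, and 92.5, 122, 142 and 81.2 CPM in NHD13/MSI2. Such a correlation rests on 9 libraries of 3 groups that share depth and group differences.

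The first comparison sets the group labelled with the fusion alone, NHD13, beside control. None of the 7 genes was called, with a call being a Benjamini-Hochberg adjusted p under 0.01 in edgeR's quasi-likelihood test over all 13355 genes tested, where 1.03% of genes were called (0.824% higher and 0.210% lower). At an unadjusted p under 0.05 all 7 genes passed, each with a lower level in NHD13, as did 13.5% of all genes tested (5.83% with a lower level). As given above, 6 of the 7 shared 1 replicate order within these groups, so the genes are not independent and do not count as separate results. DESeq2 called 3 of the 7, all lower, and 4.45% of all genes (1.66% lower). The fitted log2 fold changes were -2.94 ± 0.98 (SE) for H2-Aa, -2.80 ± 0.91 for H2-Ab1, -3.17 ± 1.19 for H2-Eb1, -2.10 ± 0.79 for Cd74 and -1.99 ± 0.83 for Ciita. For H2-DMa the log2 fold change was -0.67 ± 0.17 and for H2-DMb1 -0.71 ± 0.20. On leaving out a library these values kept their sign but moved by over 1.5 times in fold for 5 genes. Without NHD13 replicate 1 they were -4.46 for H2-Aa, -4.26 for H2-Ab1, -4.81 for H2-Eb1 and -3.41 for Cd74, and without NHD13 replicate 2 they were -2.24, -2.10 and -2.44 for the first 3. Without control replicate 1, Cd74 had -1.28 and Ciita -1.18. The edgeR adjusted p ran from 0.0808 for H2-DMa to 0.331 for Ciita. In DESeq2 the adjusted p was 0.00721 for H2-Aa, 0.00727 for H2-Ab1 and 0.00276 for H2-DMa, and over all alternatives the highest adjusted p of these genes was 0.598, 0.568 and 0.338. The median log2 fold change was -2.10 over the 7 genes and 0.017 over all genes tested. In 6 of the 7 genes, all but Cd74, both NHD13 libraries lay below each control, which 18.5% of genes tested did. Sex and group overlap in part here. Control replicate 2, the control without Xist, lay between the other controls for 6 of the 7 genes and above both NHD13 libraries for all of them. With only this control lacking Xist, the part of sex was not tested. In bulk samples fewer cells that express a gene and less RNA per cell cannot be told apart.

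The second comparison sets the group labelled with both transgenes, NHD13/MSI2, beside control. H2-DMa fell. Its level was 121 ± 4.41 CPM (SD, n = 4) in libraries labelled NHD13/MSI2 and 230.3 ± 24.2 CPM (n = 3) in controls, a log2 fold change of -0.93 ± 0.14 (SE) and 1.91-fold lower (edgeR adjusted p = 0.00158). The call held in all 19 alternatives, with adjusted p from 4.73e-09 to 0.00952. It was the only one of the 7 genes called, where 11.0% of all genes tested were called (4.49% higher and 6.55% lower), and the only one whose groups did not overlap, as 20.4% of genes did with NHD13/MSI2 lower. The log2 fold change was -1.39 ± 0.71 for H2-Aa (edgeR adjusted p = 0.211), -1.35 ± 0.67 for H2-Ab1 (0.197) and -1.24 ± 0.86 for H2-Eb1 (0.362). Cd74 (-0.11 ± 0.60, adjusted p = 0.921), H2-DMb1 (-0.096 ± 0.16, 0.727) and Ciita (-0.76 ± 0.64, 0.457) were not called either. Without control replicate 1 the last 3 values turned positive, at 0.70 for Cd74, 0.021 for H2-DMb1 and 0.043 for Ciita, and that of H2-Aa was -0.77. The median log2 fold change was -0.93 over the 7 genes and -0.011 over all genes. This comparison and that of NHD13 with control share the 3 control libraries. Sex and group overlap in part here as well, and the library names of the controls differ. The part of either was not tested.

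The third comparison sets NHD13/MSI2 beside NHD13, groups that differ by their label of MSI2, which the Msi2 counts did not follow. None of the 7 genes was called by edgeR, where 3.17% of genes were called (0.584% higher and 2.58% lower), and DESeq2 also called none, against 9.63% of all genes. At an unadjusted p under 0.05 edgeR passed 2, Cd74 and H2-DMb1, and 21.7% of all genes. The log2 fold change of Cd74 was 1.99 ± 0.76 (edgeR adjusted p = 0.158) and that of H2-DMb1 was 0.62 ± 0.19 (0.0765). These were also the 2 genes whose NHD13/MSI2 libraries all lay above both NHD13 libraries, which 13.0% of genes tested did. The log2 fold change was 1.55 ± 0.88 for H2-Aa, 1.45 ± 0.83 for H2-Ab1, 1.94 ± 1.10 for H2-Eb1 and 1.23 ± 0.78 for Ciita, with edgeR adjusted p from 0.354 to 0.419. H2-DMa alone had a negative value, -0.26 ± 0.16 (0.374). The values depended on the 2 NHD13 libraries. For H2-Aa the log2 fold change was 3.08 without NHD13 replicate 1 and 0.86 without replicate 2, and for Cd74 it was 3.32 and 1.35. The median over the 7 genes was 1.45 against -0.028 over all genes.

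**Figure D2:**
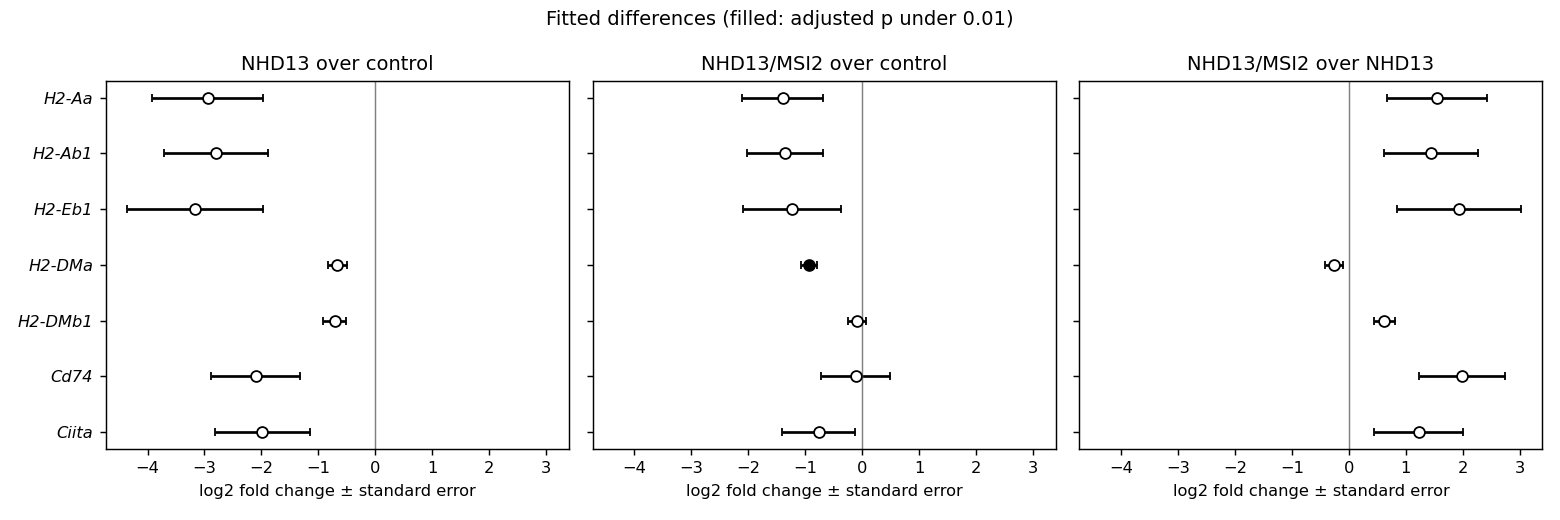
Fitted log2 fold change of the 7 class II genes in the 3 comparisons, with bars of 1 standard error, from edgeR's quasi-likelihood fit. Filled points have an adjusted p under 0.01, which holds for H2-DMa in NHD13/MSI2 over control at -0.93. The error bars of H2-Aa, H2-Ab1, H2-Eb1, Cd74 and Ciita are several times those of the DM genes.

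Ratios of counts within 1 library do not depend on its scaling. They were computed after the levels had been seen and were not tested. Invariant chain was counted 2.10 to 3.15 times as often as H2-Aa in controls, 4.60 and 5.48 times in NHD13 and 5.59 to 13.9 times in NHD13/MSI2, with no overlap between the groups. The ratio of Cd74 to H2-Ab1 was 2.08 to 4.09 in controls, 5.08 and 5.79 in NHD13 and 5.93 to 22.7 in NHD13/MSI2, again without overlap. For both ratios the NHD13 and NHD13/MSI2 ranges nearly met. The higher NHD13 value, in replicate 2, rests on 113 counts of H2-Aa and 107 of H2-Ab1. Such counts are too few to settle so narrow a gap. The share of other gene pairs that separate in this way was not computed. Cd74 over H2-Eb1 was 3.77 to 7.59 in controls, 10.9 and 14.4 in NHD13 and 9.81 to 71.9 in NHD13/MSI2, where the last 2 groups overlapped. The 2 chains of I-A kept to a narrower range, with H2-Aa over H2-Ab1 between 0.659 and 1.63 in the 9 libraries and all groups overlapping. The ratio of H2-DMa to H2-DMb1 was 4.29 to 5.32 in controls, 4.10 and 5.91 in NHD13 and 2.48 to 2.91 in NHD13/MSI2, so that the last group lay below both others. These ratios are of counts, not per length, so they compare libraries and not the amounts of the partners.

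**Figure D3:**
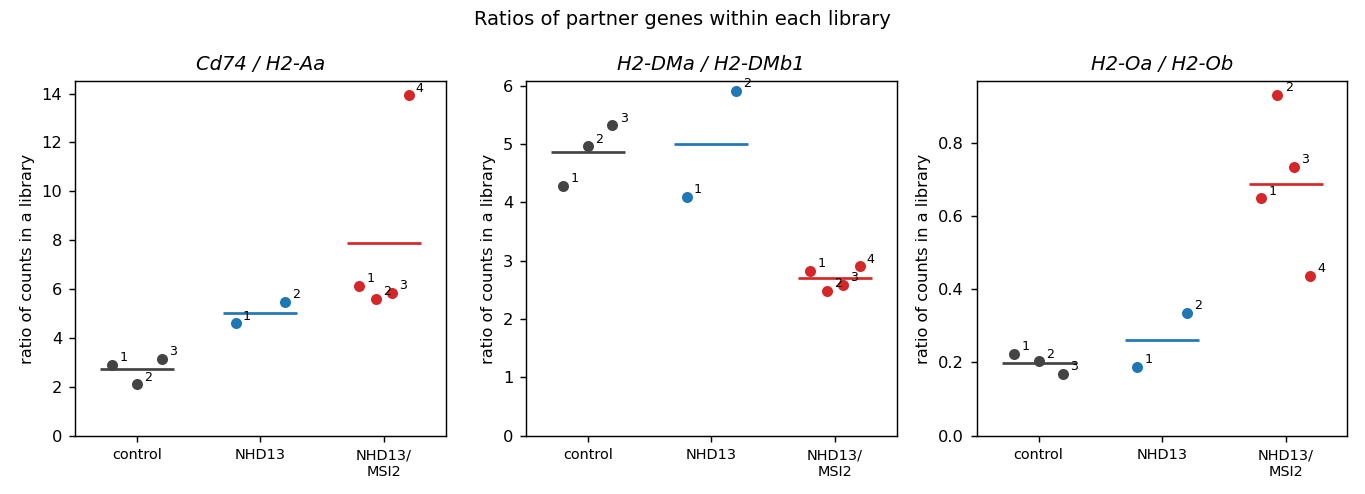
Ratio of counts of 3 pairs of partner genes in each library, on linear axes that start at 0, by group. Points are libraries with their replicate number and lines are group means. Cd74 over H2-Aa reaches 13.9 in NHD13/MSI2 replicate 4, H2-DMa over H2-DMb1 is 2.48 to 2.91 in NHD13/MSI2, and H2-Oa over H2-Ob is 0.437 to 0.931 in NHD13/MSI2 and 0.169 to 0.336 in the other libraries.

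The other genes of class II presentation were taken from a list of 22, of which 21 were in the table and 19 were tested. In NHD13/MSI2 over control 5 rose and 1 fell, where 4.49% of all genes tested rose and 6.55% fell, with a median log2 fold change of 0.49 over the list. The DO dimer restrains DM, and its chain genes were called in opposite directions in different comparisons. H2-Oa was at 21.1, 20.6 and 15.3 CPM in controls, 28.1 and 35.3 CPM in NHD13, and 46.9, 46.7, 46.6 and 26.5 CPM in NHD13/MSI2, and it rose over control (log2 fold change 1.13 ± 0.24, edgeR adjusted p = 0.00900). H2-Ob was at 94.4, 101 and 90.7 CPM in controls, 149 and 105 CPM in NHD13, and 72.3, 50.2, 63.4 and 60.8 CPM in NHD13/MSI2. It fell in NHD13/MSI2 over NHD13 (log2 fold change -1.04 ± 0.18, edgeR adjusted p = 0.00923) and was the only gene of the list called there. Over control its value was -0.63 ± 0.17 (0.0252). The ratio of H2-Oa to H2-Ob was 0.169 to 0.224 in controls, 0.188 and 0.336 in NHD13 and 0.437 to 0.931 in NHD13/MSI2.

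Of the genes of the endosome that process antigen and the invariant chain, Ctss, Ctsb, Lgmn and Ifi30 rose in NHD13/MSI2 over control, and Ctsl and Ctsd were not called. Ctss encodes cathepsin S, which cleaves the invariant chain in presenting cells. It was at 34.9, 29.5 and 33.7 CPM in controls, 119 and 119 CPM in NHD13, and 172, 177, 185 and 139 CPM in NHD13/MSI2, so that the groups did not overlap. Ctss rose in NHD13 over control (log2 fold change 1.87 ± 0.16, edgeR adjusted p = 0.000505) and in NHD13/MSI2 over control (2.36 ± 0.15, 2.26e-05), and both calls held in all 19 alternatives. It was the only gene of the list called in NHD13 over control. Ctsb, another cathepsin gene, rose in NHD13/MSI2 over control by a log2 fold change of 0.87 ± 0.16 (edgeR adjusted p = 0.00513). Lgmn, an asparaginyl endopeptidase, rose by 1.72 ± 0.36 (0.00893), and Ifi30, a thiol reductase of the endosome, rose by 2.32 ± 0.46 (0.00693). Cd86, a costimulatory ligand of presenting cells, was at 18.2, 14.3 and 20.1 CPM in controls, 1.75 and 6.82 CPM in NHD13, and 1.97, 5.73, 2.81 and 3.50 CPM in NHD13/MSI2, and it fell over control (-2.32 ± 0.49, 0.00856).

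The calls of H2-Oa, H2-Ob, Ctsb, Lgmn, Ifi30 and Cd86 were each lost in 6 to 9 of 19 alternatives, with the direction kept and the highest adjusted p between 0.0307 and 0.112. They were lost among others without any 1 of the 3 control libraries. The RFX subunits that bind the X box were not called in any comparison. In NHD13/MSI2 over control the log2 fold change was -0.27 ± 0.16 for Rfx5 (edgeR adjusted p = 0.273), 0.16 ± 0.18 for Rfxank (0.604) and -0.35 ± 0.47 for Rfxap (0.661).

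The pathway above Ciita was taken as 12 genes of interferon-gamma signalling and lineage factors, all of them tested. In NHD13/MSI2 over control 4 rose and none fell, where 4.49% of all genes tested rose and 6.55% fell, with a median of 0.22 over the list. Irf8, a factor of the monocyte, dendritic cell and B cell lineages, was at 49.5, 32.8 and 27.5 CPM in controls, 142 and 254 CPM in NHD13, and 445, 488, 618 and 263 CPM in NHD13/MSI2, and the 3 groups did not overlap. It rose 12.4-fold over control in NHD13/MSI2 (log2 fold change 3.63 ± 0.38, edgeR adjusted p = 0.000268), in all 19 alternatives. In NHD13 over control its log2 fold change was 2.44 ± 0.39 (0.0115). The receptor chain gene Ifngr2 rose in NHD13/MSI2 over control (1.28 ± 0.17, 0.000835), also in all 19 alternatives, and over NHD13 (1.19 ± 0.19, 0.00655), a call lost in 10 of 19 alternatives, among them those without any 1 control or NHD13 library. Ifngr1 rose over control by a log2 fold change of 0.80 ± 0.14 (edgeR adjusted p = 0.00404) and Jak1, a kinase bound to the receptor, by 1.21 ± 0.24 (0.00657), and each call was lost in 7 of 19 alternatives. Irf1, which interferon-gamma induces, had a log2 fold change of -0.11 ± 0.21 (0.765), and Spi1, the factor PU.1, had 1.52 ± 0.50 (0.0622). In NHD13 over control no gene of this list was called by edgeR, with 2 of 12 at an unadjusted p under 0.05 (13.5% of all genes) and 2 called by DESeq2 (4.45% of all genes).

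MHC class I, which presents cytosolic peptides on nearly all cells, was set beside class II with a list of 21 genes, 20 of them tested. In NHD13/MSI2 over control 2 of the 20 rose and none fell, a share near the 11.0% of all genes called in this comparison, with a median of 0.11. They were Tapbp, the peptide editor tapasin (0.84 ± 0.15, edgeR adjusted p = 0.00466), and Pdia3, a disulfide isomerase of the loading complex (0.70 ± 0.14, 0.00817). Tapbp lost its call without any 1 of the 3 controls or without NHD13/MSI2 replicate 1 or 3, and Pdia3 lost it in 12 of 19 alternatives. The class I heavy chains H2-K1 (0.069 ± 0.17, 0.815) and H2-D1 (0.55 ± 0.30, 0.244), the light chain B2m (0.14 ± 0.26, 0.754) and Nlrc5, the class I counterpart of Ciita (-0.17 ± 0.22, 0.653), were not called. H2-K1 was at 1120 to 1582 CPM in the 9 libraries. In the other comparisons edgeR called no class I gene. In NHD13 over control 0 of 20 had an unadjusted p under 0.05 and DESeq2 called 0, and in NHD13/MSI2 over NHD13 the counts were 3 and 1. They were 4 and 4 in NHD13/MSI2 over control, against 32.8% and 19.4% of all genes.

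**Figure D4:**
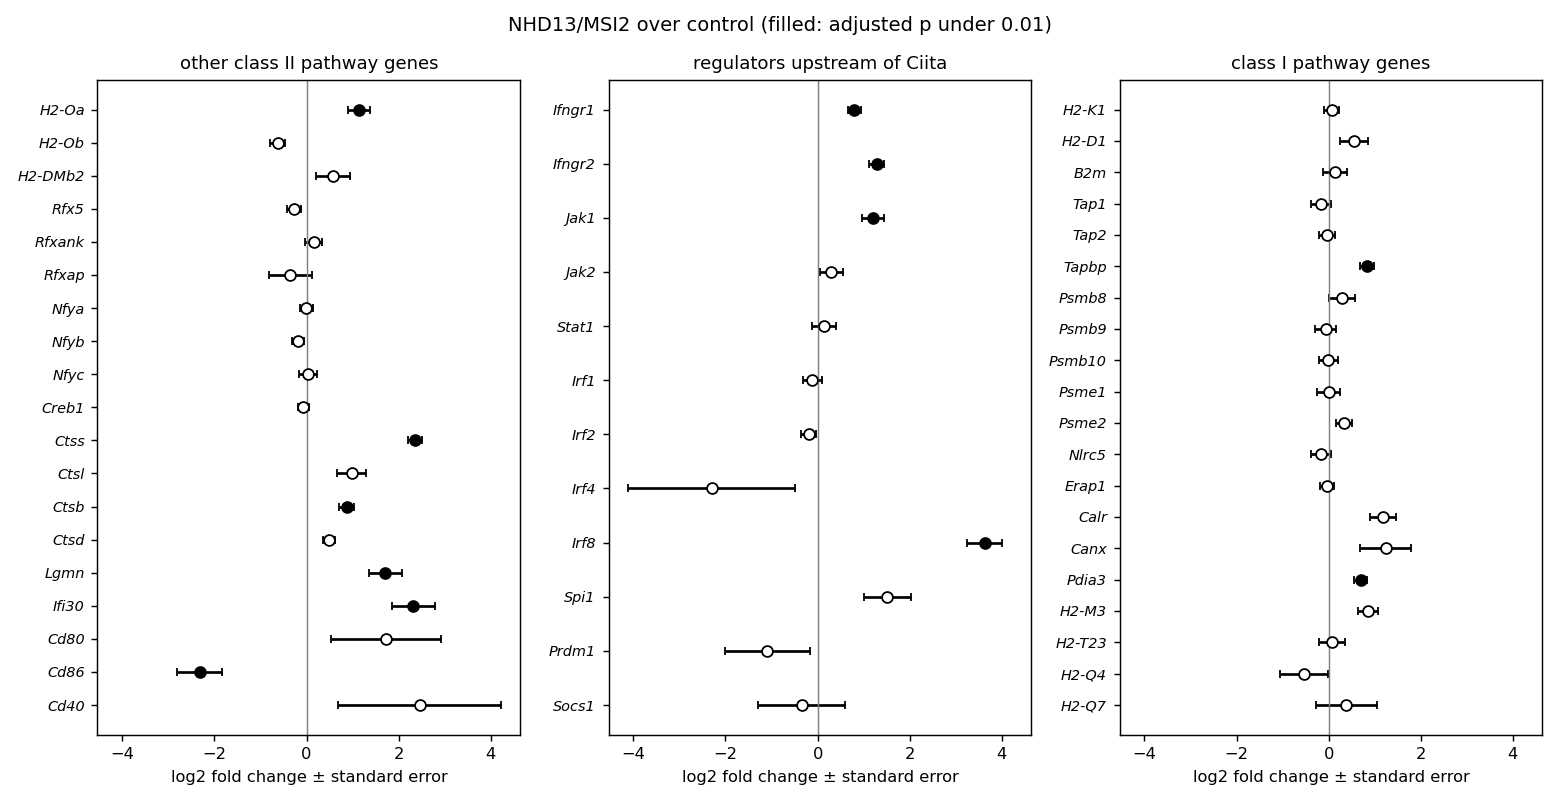
Fitted log2 fold change in NHD13/MSI2 over control for the tested genes of 3 lists (19 other class II pathway genes, 12 regulators upstream of Ciita and 20 class I pathway genes), with bars of 1 standard error from edgeR's quasi-likelihood fit. Filled points have an adjusted p under 0.01, which holds for 6, 4 and 2 genes. Irf8 at 3.63 is farthest to the right.

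Markers of mature presenting cells were read beside the class II levels. Of all genes tested, 4.49% were called higher and 6.55% lower in NHD13/MSI2 over control. In NHD13 over control 0.824% were called higher and 0.210% lower. The 12 B cell markers summed to 51.0 to 73.2 CPM in controls, 126 to 163 CPM in NHD13 and 277 to 459 CPM in NHD13/MSI2, with 3 of 12 (Cd79a, Cd79b and Pax5) called higher in NHD13/MSI2 over control. Cd79a and Cd79b made up most of these sums, and the other 10 markers summed to 5.51 to 23.2 CPM in controls, 39.97 to 45.5 CPM in NHD13 and 12.7 to 23.8 CPM in NHD13/MSI2. The defining marker Ms4a1 was at or near 0, with at most 0.931 CPM. The 12 dendritic cell markers summed to 1019 to 1068 CPM in controls, 806 to 994 CPM in NHD13 and 770 to 891 CPM in NHD13/MSI2, of which Flt3, also a progenitor gene and lower in NHD13/MSI2, made up 581 to 674 CPM in controls. Among the dendritic cell markers Cd209a and Cst3 were called higher over control, and Xcr1 and Clec9a did not exceed 5.81 and 3.31 CPM. The 14 monocyte and macrophage markers summed to 316 to 408 CPM in controls, 427 to 1018 CPM in NHD13 and 1273 to 1868 CPM in NHD13/MSI2, with Csf1r, Cd68 and Itgam called higher in NHD13/MSI2 over control. Csf1r and Cd68 were also called higher in NHD13 over control. The 10 T cell markers summed to 42.1 to 54.1 CPM in controls, 225 to 232 CPM in NHD13 and 150 to 241 CPM in NHD13/MSI2, and Cd3e did not exceed 0.698 CPM. Cd5 and Cd6 were called higher over control in both transgenic groups, and Lck in NHD13. The 9 genes of the LSK gate and its subsets summed to 5030 to 5503 CPM in controls, 3187 to 3489 CPM in NHD13 and 2970 to 3839 CPM in NHD13/MSI2, where Cd34, Flt3, Slamf1 and Procr were called lower over control. Cd34 was also called lower in NHD13 over control. In NHD13/MSI2 over NHD13 the markers called higher were Cd79b, Csf1r, Itgam, Cd5 and Cd6, and those called lower were Lck and Slamf1. Of all genes tested, 0.584% were called higher and 2.58% lower there.

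Summed over the 7 class II genes, the level was 442 to 1370 CPM in controls, 238 to 342 CPM in NHD13 and 394 to 820 CPM in NHD13/MSI2. The B cell, monocyte and T cell sums were lowest in controls and the dendritic cell sum was highest there, as was the mean class II sum. Most of the dendritic cell sum in controls was Flt3, and the list did not follow it. Of 11 tested dendritic cell markers, 8 had a positive and 3 a negative log2 fold change in NHD13/MSI2 over control. In NHD13 over control 7 were positive and 4 negative. Control replicate 1, with the highest class II levels, was the highest control for 10 of 12 B cell markers, 8 of 12 dendritic cell markers and 4 of 14 monocyte markers. The same held for 13 of 21 class I genes, 9 of 21 other class II pathway genes and 5 of 12 regulators upstream of Ciita. It held for 4 of 10 T cell markers and 4 of 9 LSK genes, and the share over all genes was not computed. In control replicate 1 Xcr1 was at 5.81 CPM and Clec9a at 3.31 CPM, against at most 0.480 and 1.23 CPM in the other controls. Itgax was at 2.58 CPM there and at 2.94 CPM in control replicate 2. The dendritic cell sum was 1020 CPM in control replicate 1 and highest in control replicate 3, at 1068 CPM. The part of these cells in the class II levels was not tested.

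**Figure D5:**
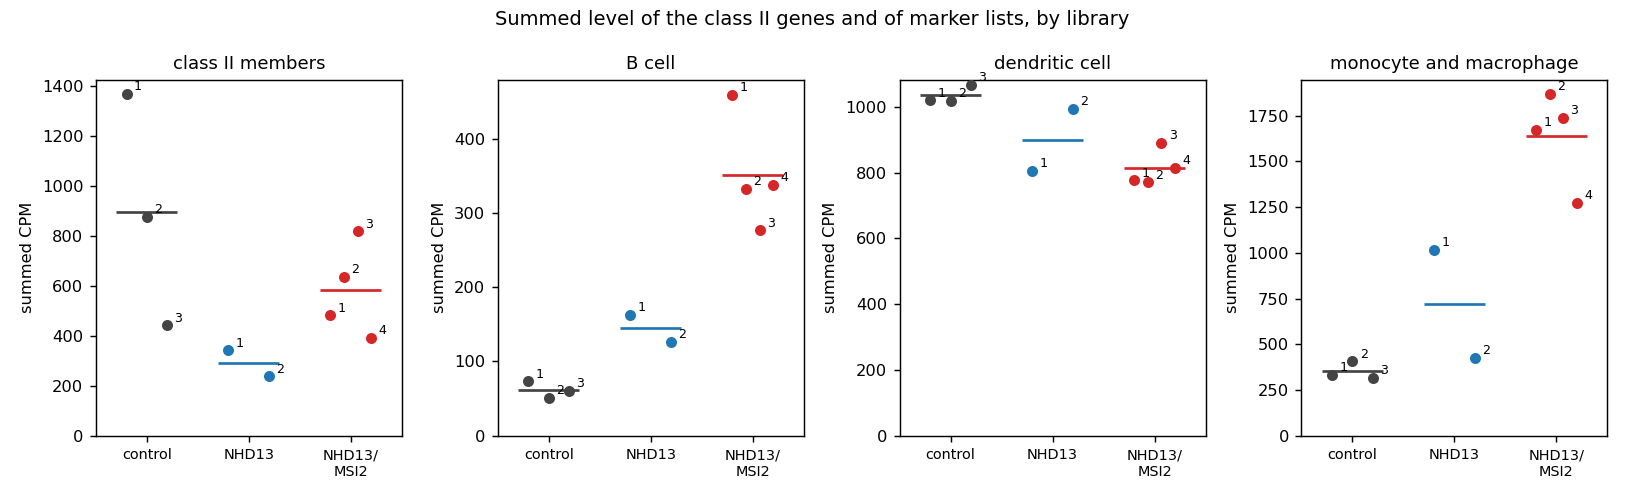
Summed CPM of the 7 class II genes and of the B cell, dendritic cell, and monocyte and macrophage marker lists in each library, on linear axes that start at 0. Points are libraries with their replicate number and lines are group means. The class II sum is highest in control replicate 1 at 1370 CPM. The dendritic cell sum, most of it Flt3 in controls, is highest in controls at 1019 to 1068 CPM. The B cell and monocyte sums are highest in NHD13/MSI2.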

How the data were processed

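RNA was measured in 9 libraries of sorted LSKs (3 control, 2 NHD13, 4 NHD13/MSI2), grouped by their labels. The authors deposited a table of raw counts per gene symbol, not normalized. The submitters' processing notes name STAR, HTSeq, DESeq and mm9, and versions and settings are not given in the sources used here. The table has 24073 rows, 2 of them blank. Names after the March genes (11942) were moved down by 2 rows, since 94.4% of 72 ribosomal protein names then reached a mean of 1000 counts, against 73.6% as deposited. The 13 rows that could not be settled, among the March genes, were left out and hold 0.0253% to 0.0323% of a library. None of the 7 genes was among the moved names.

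Genes were filtered with filterByExpr, TMM-scaled and fitted with edgeR 4.0.16 (R 4.3.3) in 1 quasi-likelihood model of 3 groups with no covariate. A call is a Benjamini-Hochberg adjusted p under 0.01 over 13355 genes, and prior degrees of freedom were 3.38. With 2 NHD13 libraries the spread is shared over the groups. SE is the log2 fold change over the square root of F. The fit was tested on simulated data. DESeq2 1.42.0, other scalings, other filters, a replicate block, fits restricted to the compared groups, a robust fit and leaving out each library were alternatives. Library totals of 19242153 to 23013493 counts set the precision, and floors of 3 counts cover counting error only.

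The genes and lists were chosen with earlier results of these data known. Genes named are the 7 members, each called gene of the 3 pathway lists, 12 preset genes, marker genes called or near 0, and the 5 most like the members' mean profile among genes with a mean of at least 50 counts. Brd2, Dexi, Msi2 and the label checks were added as needed. No source says whether libraries are separate mice, so p-values measure only the spread between these samples. Exon lengths are from GENCODE M21 and promoter windows from RefSeq. The value of 1 B cell marker is not reported here.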

Additional observations from a re-analysis of the deposited data

Results flagged for a closer look

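Among 36 values tested within the 4 NHD13/MSI2 libraries, 6 had a highest or lowest library whose gap to the nearest other, over the whole range, passed Dixon's 95% critical value for 4 samples. Chance gives this in about 1 of 20 such groups. Replicate 4 was the library in 5 of the 6. Its H2-Oa level was 26.54 CPM, below the other three, and its Tapbp level was 701.9 CPM, above them. Its ratios of Cd74 counts were 13.92 to H2-Aa, 22.72 to H2-Ab1 and 71.86 to H2-Eb1, the latter with 43 counts of H2-Eb1. The remaining value was Rfxap in replicate 2, at 2.244 CPM, a gene of few counts. Replicate 4 also had the lowest TMM factor, 0.785, and Msi2 and Brd2 levels above the other NHD13/MSI2 libraries, and its part in these values was not tested.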

How the results depend on the processing

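For the 7 genes in 3 comparisons, 399 alternative values were computed over 19 alternatives, of which 390 kept their direction and side of the threshold. In NHD13/MSI2 over control 6 changed sign without being called under either setting. They were Cd74 at 0.41 with the replicate block, 0.70 without control replicate 1, 0.012 without NHD13/MSI2 replicate 1 and 0.050 without replicate 4, and, without control replicate 1, H2-DMb1 at 0.021 and Ciita at 0.043. On leaving out a library these 3 genes ranged from -0.54 to 0.70, -0.24 to 0.021 and -1.21 to 0.043. The alternatives for called genes of the pathway lists were chosen once their values were known. With the names as deposited Tapbp had -0.17, since the row then belongs to another gene.

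The number of the 7 genes called was 0 in NHD13/MSI2 over NHD13 and 1 in NHD13/MSI2 over control in all alternatives. In NHD13 over control it was 3 with DESeq2 and 0 in the others, those that leave out a library included. Genes called numbered 423 in NHD13/MSI2 over NHD13, 1286 with DESeq2, 1177 at an adjusted p under 0.05, 203 with the replicate block, 30 with only the groups compared, and 128 (without NHD13 replicate 1) to 646 (without NHD13/MSI2 replicate 4) on leaving out a library. In NHD13/MSI2 over control they numbered 1474, 2589 with DESeq2, 2745 at 0.05, and 647 (without control replicate 3) to 2066 (without NHD13/MSI2 replicate 4). In NHD13 over control they numbered 138, 594 with DESeq2, 386 at 0.05, 83 with only the groups compared, and 38 (without control replicate 3) to 251 (without NHD13/MSI2 replicate 4). The cause was not tested, except that a looser threshold calls more genes. With library totals in place of TMM, genes called in NHD13/MSI2 over control were 401 higher and 1085 lower, against 599 and 875, and the median over all genes moved to -0.22.

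The labels do not say whether the replicate numbers pair the libraries. Deviations of 7 same-numbered pairs correlated at -0.0716 to 0.194, with 2 pairs over 0.1. Those of different-numbered pairs correlated at -0.194 to 0.153. The deviations of the 2 NHD13 libraries are equal and opposite, so these correlations cannot decide whether libraries are paired. With the replicate block, genes called were 203 in NHD13/MSI2 over NHD13, 1407 for NHD13/MSI2 over control and 101 for NHD13 over control. Depth limits Ciita and H2-Eb1 most, with 42 and 43 counts in their lowest libraries. The spread between libraries, and the pair of NHD13 libraries, limit the other values.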
